A study of Rattus norvegicus with 8 samples.

Results

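The potassium channel genes of the rat medial thalamus were measured with every probe of a whole-genome rat array whose gene name begins with Kcn. The rule found 86 gene names out of 35561 names on the array, measured by 106 of its 41012 probes. Of these, 89 probes for 74 gene names gave a signal well above background in the animal's RNA on at least 4 of the 8 arrays and were tested, among 31690 probes tested in all. RNA came from male Sprague-Dawley rats under urethane anaesthesia that carried an inflatable tracheal cuff. In the 4 occlusion animals the cuff was closed for 2 to 4 breaths, opened for at least 15 breaths, and closed again in this way for 10 min, and the brain was then taken at once. In the 4 control animals the cuff was placed but never inflated, and the brain was taken 70 min after setup. How long after setup the occluded brains were taken was not stated in the labels used here, and a difference in that interval cannot be told apart from the occlusion. Each animal's RNA (Cy5) shared an array with a pool of all 8 animals (Cy3), and values are log2 of animal over pool unless another scale is named.

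Potassium channels let potassium leave the neuron and so hold the resting potential, end the action potential and set the firing pattern. Voltage-gated channels are built from pore subunits of the Kcna, Kcnb, Kcnc, Kcnd, Kcnh or Kcnq families, in some cases with silent or accessory subunits. Inward rectifiers (Kcnj), leak channels with a pair of pore domains (Kcnk) and channels opened by calcium or sodium (Kcnma, Kcnn, Kcnt) act at rest or after activity. In thalamic relay neurons the leak conductances help to set whether the cell fires in bursts or single spikes, and Kcnc channels allow the fast spiking of reticular neurons.

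The Cy5 signal was well above background at 68.3% to 80.2% of the spots of an array, and the median Cy5 signal over background was 3.65 to 4.67. Slide 1 held occlusion 1 and 2 with control 3 and 4, and slide 2 held occlusion 3 and 4 with control 1 and 2. Control 3 stood apart. The mean log2 ratio of 11 tested cortex markers was 1.62 in control 3 and -1.06 to -0.30 in the other 7 animals. The mean of 9 tested thalamic relay markers was -1.82 in control 3 and -0.31 to 0.24 in the others. Tcf7l2, Plekhg1 and Synpo2 of that list and Tbr1 and Mef2c of the cortex list had no named probe. The remaining cortex marker, Emx1, was well above background on 3 arrays. Results that rest on control 3 are therefore also given without it. In dissected tissue, fewer cells of a type and less RNA per cell cannot be told apart.

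Transcripts of every potassium channel family on the array except Kcnrg were measurable in the dissected thalamus. Of the 106 probes, 80 were well above background on all 8 arrays and 10 on none, and the share tested was 84.0%, beside 77.3% of all probes. Names with no probe well above background on any array were Kcna7 (a muscle-type voltage-gated channel), Kcne3, Kcnj1 (an inward rectifier of the kidney) and Kcnj15. The same held for Kcnj2 (the classical inward rectifier) and Kcnrg (a regulator of channel assembly). For Kcnd3, Kcnj6 and Kcnmb1, 1 further probe each was also not well above background on any array. Another 7 probes were well above background on some arrays but too few to be tested. Among them were those of Kcne1, Kcne4, Kcnh8, Kcnq1 and Kcnv2 and 1 of Kcng2. Of these, Kcne1, Kcne4 and Kcnq1 were well above background in no occlusion animal and in 2, 1 and 1 controls. Kcnv2 was well above it in 1 occlusion animal and no control. No probe was saturated. For a probe not well above background the array gives only an upper bound.

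Occlusion was compared with control to ask which channel transcripts differ after repeated brief obstruction of breathing. Of the 89 potassium channel probes, 0 had a Benjamini-Hochberg adjusted p under 0.05 in limma, beside 0% of the 31690 probes tested, and the smallest adjusted p among the members was 0.977. At an unadjusted p under 0.05, 2 of 89 potassium channel probes were higher after occlusion, beside 1.81% of all probes, and 1 was lower, beside 1.25%. The 2 higher probes were both of 1 gene, Kcnip1. In no member did the groups separate completely upwards (1.23% of all probes) or downwards (1.27%). Over the tested members 37 differences were above 0 and 52 below, with a median of -0.03 log2 units, beside 0.002 for all probes. Without control 3 the split was 44 above and 45 below. The 3 members counted at the unadjusted threshold, beside 3.06% of all probes, became 8 without control 1 (beside 5.33% of all probes there), 7 without control 3 (4.12%) and 5 without occlusion 4 (3.53%). The count was 1 without occlusion 1 (1.78%), occlusion 2 (2.32%) or control 4 (3.14%). Within slide 1 it was 10 (4.07%) and within slide 2 it was 6 (2.66%).

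The spread between animals was wider for these genes than for the array as a whole. The median standard error of a difference was 0.16 log2 units for the members and 0.10 for all probes, and the median absolute difference was 0.13 and 0.07. The median SD over the 8 animals was 0.27 for the members and 0.14 for all probes. Without control 3 these gaps were narrower, with a median SD of 0.17 and 0.12, a median standard error of 0.11 and 0.09, and a median absolute difference of 0.10 and 0.07. In the plot of differences by family, filled points show all 8 animals and open points leave out control 3.

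**Figure D1:**
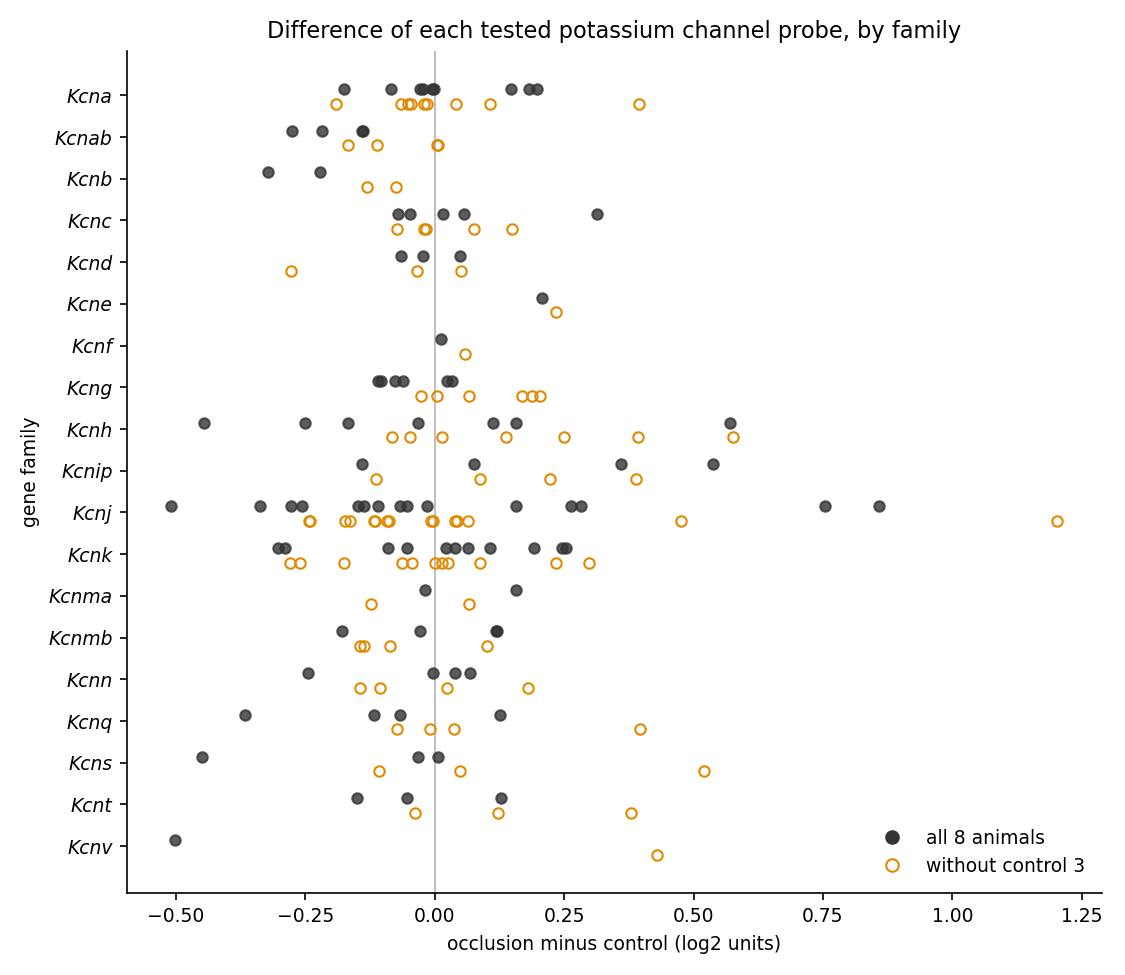
Difference between occlusion and control (log2 units, x axis) of each of the 89 tested potassium channel probes, grouped by gene family (y axis). Filled points use all 8 animals and open points leave out control 3. Kcnab lies below 0 with all animals, Kcnv1 moves from -0.50 to 0.43 without control 3, and Kcnj13 lies farthest to the right.

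Kcnip1, which encodes a calcium-binding accessory subunit of the Kcnd A-type channels, had the smallest unadjusted p of the potassium channel genes. Its brighter probe lies at chr10:18563101-18563160 on the minus strand of the rn3 build used by the array design. The log2 ratios of this probe were 0.25, 0.37, 0.18 and -0.05 in occlusion animals 1 to 4, against 0.10, -0.30, -0.80 and -0.40 in controls 1 to 4. Occlusion 1, 2 and 3 were above all controls, and occlusion 4 lay below control 1, so the groups overlapped. The difference was 0.54 (SE 0.18; limma unadjusted p = 0.014, adjusted p = 0.977). An exact permutation test over the 70 assignments of 4 against 4 animals gave a two-sided p of 0.057, where the smallest p it can give is 0.029. The second Kcnip1 probe had ratios of -0.01, 0.34, 0.07 and -0.02 in occlusion animals 1 to 4, against 0.09, -0.30, -0.68 and -0.18 in controls 1 to 4, with a difference of 0.36 (SE 0.16). Its limma unadjusted p was 0.048 and its adjusted p 0.977. Over the 8 animals the 2 probes had a Pearson r of 0.94, as probes of 1 gene in the same libraries. Without control 3, the lowest animal on both probes, the differences were 0.39 and 0.22. Within slide 1, which holds control 3, the brighter probe differed by 0.91, and within slide 2 by 0.17.

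Kcnip4, an accessory subunit that is abundant in brain, differed by 0.08 (SE 0.20) and by -0.11 without control 3. The Kcnip2 probe, chosen after its values were seen, differed by -0.14 (SE 0.22), and by 0.09 without control 3, its highest animal. Its difference was -0.61 within slide 1 and 0.33 within slide 2. Kcnip proteins bind the Kcnd pore subunits. Kcnd2 had ratios of 0.19, 0.15, -0.14 and 0.22 in occlusion animals 1 to 4, against 0.31, 0.51, -0.47 and 0.31 in controls 1 to 4. Control 3 was the lowest animal, and without it the difference went from -0.06 to -0.28 (limma unadjusted p = 0.027, adjusted p = 0.932). Without that animal 1.65% of all probes were lower at an unadjusted p under 0.05. Kcnd3 differed by 0.05 (SE 0.10).

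**Figure D2:**
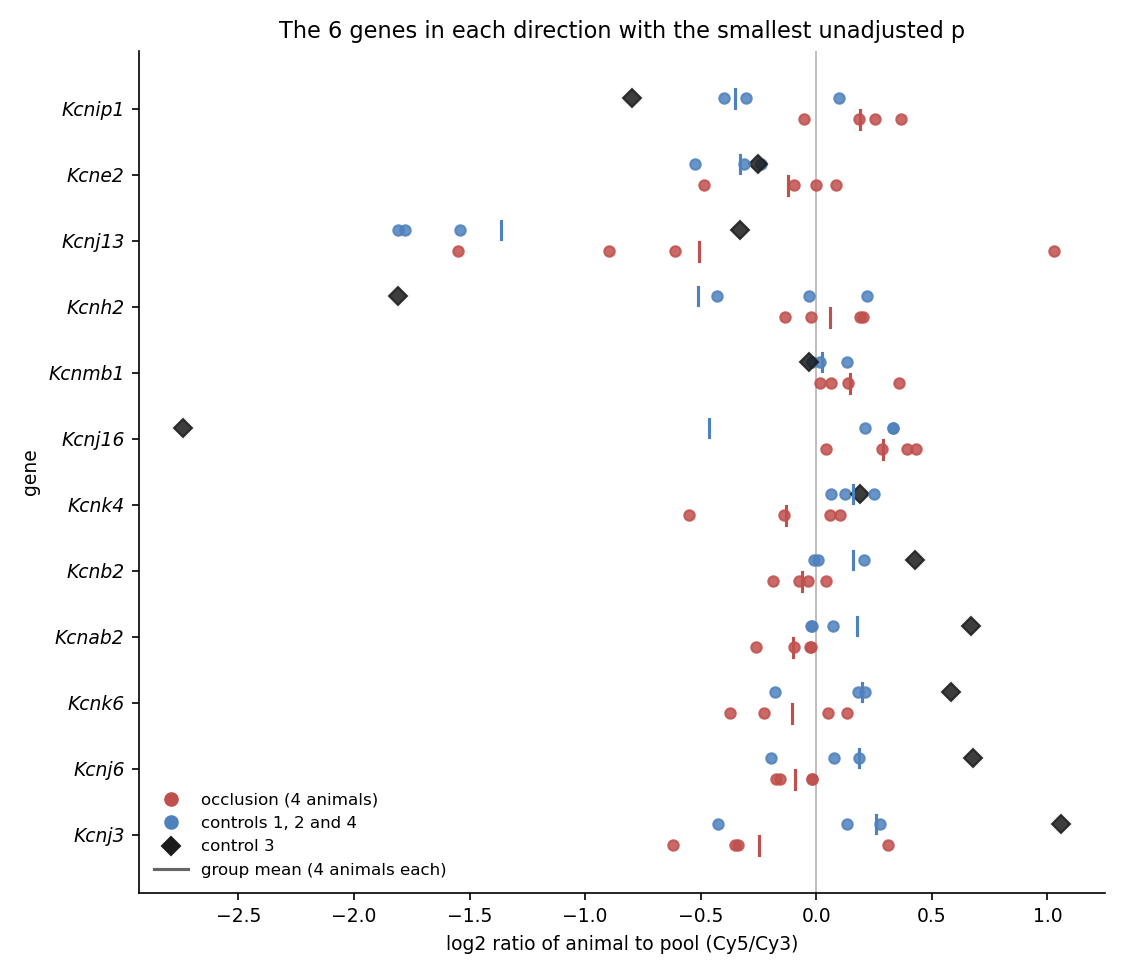
Log2 ratio of each animal to the pool (x axis) for the 6 potassium channel genes with the smallest unadjusted p in each direction (y axis; the upper 6 were higher after occlusion). Points are animals, a diamond is control 3 and vertical bars are means of 4 animals. In every gene shown the groups overlap, and in Kcnj16 control 3 at -2.74 lies far from the other 7 animals. The Kcnmb1 probe was near background.

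Among the other accessory subunits, the Kcnab family, whose proteins bind the inner face of Kcna channels, lay below 0 in 4 of 4 tested probes, with a median difference of -0.18. Kcnab2 had ratios of -0.02, -0.10, -0.03 and -0.26 in occlusion animals 1 to 4, against -0.02, -0.02, 0.67 and 0.07 in controls 1 to 4. Control 3 was the highest animal and the other 7 lay between -0.26 and 0.07, where occlusion 1 and control 1 were nearly equal. The difference was -0.28 (SE 0.15; exact permutation p = 0.057) and -0.11 without control 3. Without that animal, 2 Kcnab probes were above 0 and 2 below, and within slide 2 the split was 3 above and 1 below. Kcne2, a small single-pass subunit found in choroid plexus and heart, differed by 0.21 (SE 0.13), with -4.4e-04, -0.10, 0.09 and -0.49 in occlusion 1 to 4. Its controls, from -0.52 to -0.24, overlapped with occlusion 4. The occlusion animals ranked as in the choroid plexus and ependyma markers given with Kcnj13 below. Control 3, lowest in those markers, was not lowest in Kcne2.

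The Kcna voltage-gated channels, some of which sit along axons and limit repetitive firing, had 3 probes above 0 and 6 below. With Cy5 signal alone the split was 5 above and 4 below. Kcna1 had ratios of 0.25, -0.27, -0.07 and 0.03 in occlusion animals 1 to 4, against -0.25, -0.85, 0.38 and -0.14 in controls 1 to 4 on its brighter probe. Control 2 was the lowest and control 3 the highest, and the occlusion animals lay within the range of the controls. The difference was 0.20 (SE 0.23), and 0.40 without control 3. Its second probe differed by -0.09, of opposite sign. Kcna2, its usual partner in axonal channels, differed by -0.17 (SE 0.11).

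Kcnb2, a slow delayed rectifier of cell body and dendrite, had ratios of -0.07, -0.04, 0.04 and -0.19 in occlusion animals 1 to 4, against -0.01, 0.01, 0.43 and 0.21 in controls 1 to 4. Control 3 was the highest animal, and occlusion 3 lay above controls 1 and 2, so the groups overlapped. The difference was -0.22 (SE 0.11), and -0.13 without control 3. In Kcnc2, a pore subunit of fast-closing channels, control 3 was at the other end. Kcnc2 had ratios of -0.31, -0.0036, 0.14 and 0.33 in occlusion animals 1 to 4, against 0.11, -0.09, -1.43 and 0.32 in controls 1 to 4, with control 3 alone below -1.0. Its difference was 0.31 (SE 0.35), and -0.07 without that animal. Kcnc1, of the same family, differed by -0.07 (SE 0.11), and by -0.02 without control 3.

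Kcnq3 contributes to the M-current, which damps excitability and is closed by muscarinic receptors. Kcnq3 differed by -0.07 (SE 0.17), with occlusion 1 and 2 below every control and occlusion 3 and 4 above every control. Its ratios were -0.22, -0.19, 0.37 and 0.40 in occlusion animals 1 to 4, against 0.22, 0.19, 0.33 and -0.11 in controls 1 to 4. The difference was -0.32 within slide 1 and 0.18 within slide 2, and -0.01 without control 3.

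In the Kcnj family of inward rectifiers, 5 probes were above 0 and 10 below. Kcnj3, Kcnj6 and Kcnj9 encode subunits of the channels opened by G protein-coupled receptors such as those for GABA and acetylcholine. All 4 tested Kcnj3 probes lay below 0, with differences from -0.51 to -0.07. The probe at -0.07 was near background, well above it on 5 arrays for the animal and on 0 for the pool. It lies on chr3 in rn3, and the other Kcnj3 probes lie on chr8. The brightest had ratios of 0.31, -0.34, -0.62 and -0.35 in occlusion animals 1 to 4, against -0.43, 0.27, 1.06 and 0.13 in controls 1 to 4. Occlusion 1 was above control 2, control 3 was highest, and the groups overlapped. The difference was -0.51 (SE 0.30), and -0.24 without control 3. A dimmer Kcnj3 probe, the 1 member below 0 at an unadjusted p under 0.05, had ratios of -0.13, -0.04, -0.01 and 0.19 in occlusion animals 1 to 4, against -0.01, 0.45, 0.63 and 0.29 in controls 1 to 4 and a difference of -0.34 (SE 0.14; limma unadjusted p = 0.035, adjusted p = 0.977). Only occlusion 4 of its group was above control 1, and the exact permutation p was 0.057. The lowest Pearson r between any 2 of the 4 Kcnj3 probes was -0.12 over the 8 animals, so the 4 did not all follow each other.

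Kcnj6 differed by -0.28 (SE 0.16) and by -0.11 without control 3. Kcnj9 differed by -0.11 (SE 0.10) and by -0.17 without it. The ATP-sensitive pore subunits, which open when cellular energy falls, were Kcnj11 of neurons at -0.05 (SE 0.11) and Kcnj8 of vascular cells at -0.15 (SE 0.24). For Kcnj8 the ratios were -0.31, -0.43, 0.15 and 0.19 in occlusion animals 1 to 4, against -0.13, -0.38, 0.68 and 0.02 in controls 1 to 4. Control 3 was again highest, and occlusion 1 and 2 were at the low end together with control 2. Without control 3, Kcnj11 was at 0.04 and Kcnj8 at 0.06, both of opposite sign. Kcnj10, the glial channel that clears extracellular potassium, differed by -0.02 (SE 0.11), and by -0.09 without control 3.

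Kcnj16, which joins Kcnj10 in glial channels, ranged far in a single animal. Its probe lies at chr10:100530231-100530290 on the plus strand of rn3. The ratios were 0.39, 0.04, 0.29 and 0.43 in occlusion animals 1 to 4, against 0.33, 0.33, -2.74 and 0.21 in controls 1 to 4. Control 3 was more than 2 log2 units below every other animal, and the other controls lay within the range of the occlusion animals. The difference of 0.75 (SE 0.63) with all animals was -0.003 without control 3. The 8 tested astrocyte markers did not share this position, with a mean log2 ratio of 0.01 in control 3 and -0.16 to 0.08 in the other 7. Kcnj10 in control 3 was -0.19, its lowest value, beside -0.12 to 0.21 in the others. The Kcnj10 probe was dim, at a mean log2 intensity of 7.25 beside 9.63 for Kcnj16. A probe so close to background can show only part of a fall, so the 2 genes cannot be compared in size.

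Kcnj13, an inward rectifier of choroid plexus and other transporting epithelia, had the largest difference of all members at 0.86 (SE 0.54; exact permutation p = 0.314). Its ratios were -0.61, -0.90, 1.03 and -1.55 in occlusion animals 1 to 4, against -1.54, -1.78, -0.33 and -1.81 in controls 1 to 4. Occlusion 3 stood above all others, control 3 was second, and occlusion 4 was as low as the remaining controls. Without control 3 the difference was 1.20. The probe was well above background in the animal's channel on 7 of the 8 arrays (4 occlusion, 3 control). Of 9 choroid plexus and ependyma markers 8 were tested, as Kl was well above background on 1 array only. The 8 had means of -0.18, -0.24, 0.78 and -0.67 in occlusion animals 1 to 4, against -0.37, -0.69, -1.63 and -0.72 in controls 1 to 4. Ttr, the main secretory product of that tissue, was 2.28 in occlusion 3 and -2.79 to -1.76 in the others. Of the 8 tested choroid plexus and ependyma markers, 8 were higher after occlusion, with a median difference of 0.73, and 0.40 without control 3. At an unadjusted p under 0.05 (limma) 4 of them were higher, beside 1.81% of all probes. Occlusion 3 was highest in both the list and Kcnj13, while control 3 was lowest in the list and second in Kcnj13. In the 10 meningeal and fibroblast markers control 3 was highest at 1.05 and occlusion 3 next at 0.03, with the other 6 animals from -0.54 to -0.36. The part of either marker list in the Kcnj13 or Kcne2 difference was not tested.

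The Kcnk leak channels had 7 probes above 0 and 4 below, a split that became 5 and 6 after median centring or with the scanner software's ratio. Kcnk3 and Kcnk9, the acid-sensitive leak channels of relay neurons, differed by 0.04 (SE 0.07) and -0.09 (SE 0.08), and by 0.02 and -0.06 without control 3. Kcnk2, a mechanosensitive leak channel, differed by 0.06 (SE 0.09), and Kcnk1 by -0.05 (SE 0.09). Kcnk4, also mechanosensitive and the lowest p among the brightest probes below 0, had ratios of -0.55, -0.14, 0.10 and 0.06 in occlusion animals 1 to 4, against 0.13, 0.06, 0.19 and 0.25 in controls 1 to 4. Occlusion 1 was the lowest animal, and occlusion 3 overlapped with the controls. The difference was -0.29 (SE 0.14; exact permutation p = 0.057), and it was -0.28 without control 3. It was -0.56 within slide 1 and -0.01 within slide 2. Kcnk6 differed by -0.30 (SE 0.17), and by -0.18 without control 3, its highest animal. The dimmer Kcnk6 probe differed by 0.19, of opposite sign, and by 0.30 without control 3.

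Of the channels opened by calcium, Kcnma1, the large-conductance pore subunit, had ratios of 0.11, 0.36, -0.11 and -0.26 in occlusion animals 1 to 4, against 0.11, 0.13, -0.27 and 0.21 in controls 1 to 4. Occlusion 2 was highest and occlusion 4 was near control 3 at the low end. The difference was -0.02 (SE 0.15), and -0.12 without control 3. Kcnmb1, a regulatory subunit best known from smooth muscle, differed by 0.12 (SE 0.09). Its probe was near background, well above it on 7 arrays for the animal and on 0 for the pool, so its ratios say little. The small-conductance channels Kcnn2 and Kcnn3, which carry the after-hyperpolarisation that shapes thalamic bursts, differed by -0.25 (SE 0.16) and 0.07 (SE 0.20). Without control 3 these became -0.11 and -0.14.

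**Figure D3:**
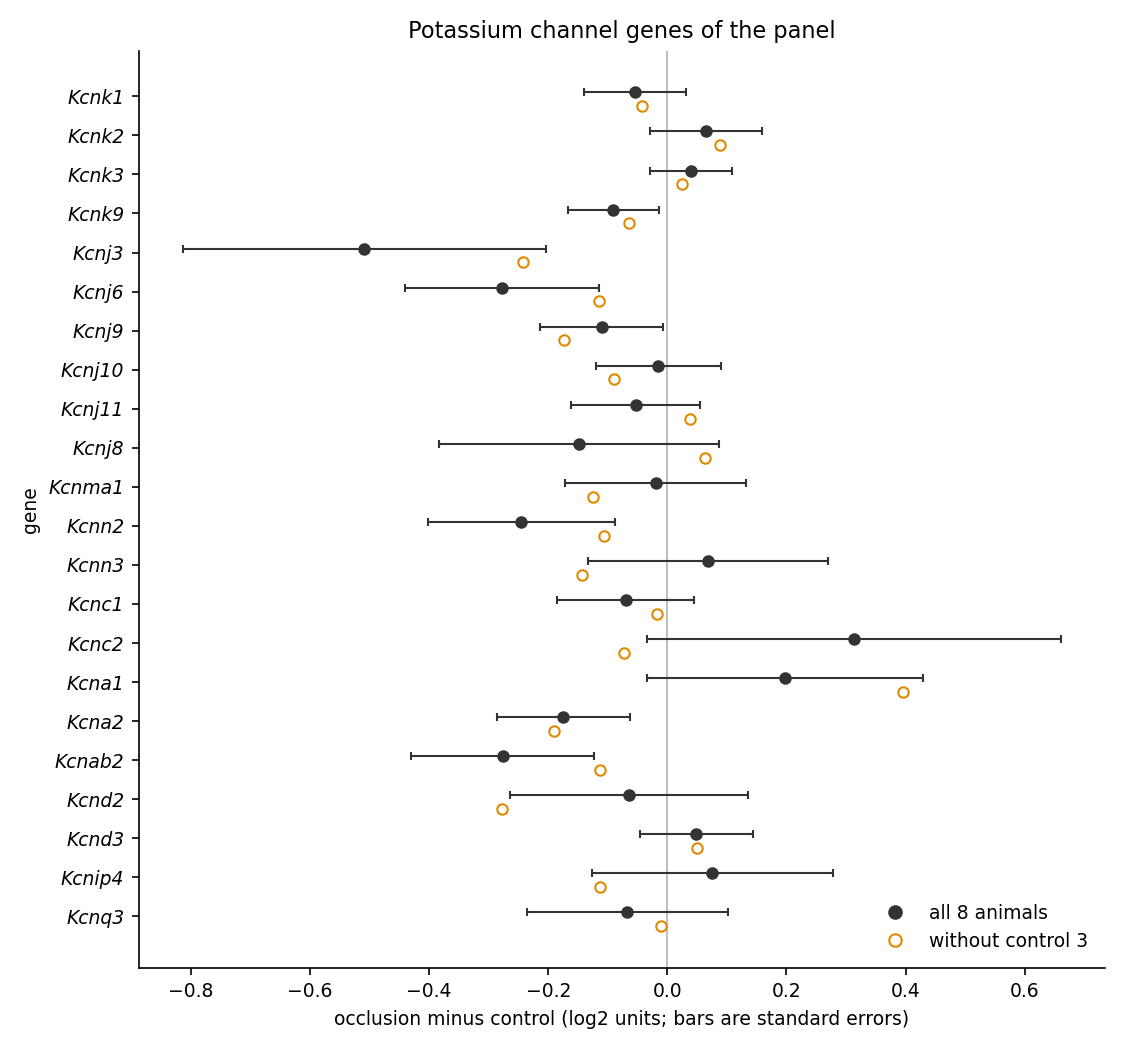
Occlusion minus control (log2 units, x axis) for 22 potassium channel genes of the panel, with known roles in neurons, glia or vessels (y axis). Filled points with standard error bars use all 8 animals, open points leave out control 3. Kcnj3 lies lowest at -0.51, Kcnc2 highest at 0.31, and Kcnc2 moves to -0.07 without control 3.

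Over the whole panel of 25 genes, 7 were above 0 and 18 below, with a median of -0.06. Of all 31690 probes, 16073 were above 0 and 15617 below, with a median of 0.002. In the panel 0 genes had an unadjusted p under 0.05 (limma), beside 3.06% of all probes, so a count of 0 in 25 says little. Agreement between probes of 1 gene was limited. Of 11 gene names with several tested probes, 3 had the same sign on every probe (Kcnab1, Kcnip1 and Kcnj3) and 8 did not. A Kcnj3 probe among these was near background.

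Genes that work beside the channels were not called in either direction. Of 24 tested channel partners (scaffolds and auxiliary proteins such as Dpp6 and Dpp10), 11 were above 0 and 13 below, with a median of -0.02. Of 5 Hcn channels, the relatives that carry the pacemaker current of relay neurons, 3 were above 0 and 2 below, with a median of 0.02. Of 16 potassium pumps and cotransporters 9 were above 0 and 7 below, with a median of 0.02. In these 3 lists 0 genes passed the adjusted threshold (limma), beside 0% of all probes. At an unadjusted p under 0.05 in either direction there were also 0, beside 3.06% of all probes.

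The main variation among the potassium channel genes was that of control 3 against the other 7 animals, which is given as a description. Control 3 lay outside the range of the others in 64 of 89 members (71.9%), highest in 40 and lowest in 24, beside 48.8% of all probes. The median distance from the median of the other 7 was 0.53 log2 units for the members and 0.16 for all probes, and 19.1% of members lay over 1 unit away, beside 4.11% of all probes. Leaving control 3 out turned the sign of the difference in 29 members (32.6%), beside 21.7% of all probes. At an unadjusted p under 0.05, 5 members were then higher, beside 2.47% of all probes, and 2 lower, beside 1.65%, with 0 past the adjusted threshold (limma), beside 0.00316%. Those higher were Kcnip1, Kcnh1, Kcnj13, Kcnj4 and Kcnq5, and those lower were Kcnd2 and Kcnk13. Kcnq5 was chosen after its values were seen.

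The 6 genes highest in control 3 were Kcnv1, Kcnh3, Kcnj4, Kcnh1, Kcns3 and Kcns1. Kcnv1, a silent subunit that alters Kcnb channels, had ratios of -0.59, -1.58, -0.20 and -1.17 in occlusion animals 1 to 4, against -1.42, -1.21, 2.41 and -1.31 in controls 1 to 4. Kcnh3, a voltage-gated channel of the forebrain, had ratios of -1.11, -1.62, -0.25 and -1.26 in occlusion animals 1 to 4, against -1.15, -1.57, 1.90 and -1.64 in controls 1 to 4. Kcnj4, an inward rectifier of forebrain neurons, had ratios of -0.64, -1.22, -0.15 and -0.75 in occlusion animals 1 to 4, against -1.07, -1.15, 1.76 and -1.28 in controls 1 to 4. Control 3 was the one animal above 0 in each of these 3, and occlusion 3 was second in each. Occlusion 3 was also second in the cortex markers, at -0.30. Its potassium channel ratios lay closest together, with an SD over the members of 0.18 beside 0.30 to 0.79 in the other animals. The same held over all probes of its array, with an SD of 0.14 beside 0.18 to 0.37, so it was not particular to these genes. That array also had the lowest median Cy5 signal over background, at 3.65. Kcnh1, a slowly activating voltage-gated channel, had ratios of -0.16, -0.76, -0.41 and -0.61 in occlusion animals 1 to 4, against -0.66, -1.32, 1.91 and -1.20 in controls 1 to 4. Without control 3, occlusion 1, 3 and 4 lay above the remaining controls and occlusion 2 below control 1, so the groups still overlapped, and the difference was 0.58 in place of -0.17. Kcnj4 went from -0.26 to 0.48, with occlusion 2 again among the controls. Over the same 7 animals the 11 cortex markers had a median difference of 0.11, beside -0.35 with all 8, and the part of tissue outside the thalamus in these channel values was not tested.

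The silent subunits Kcns3 and Kcns1, which pair with Kcnb pores, stood 1.96 and 1.43 above the median of the other 7 in control 3. Kcns3, also known from parvalbumin interneurons, had ratios of 0.90, -0.47, -0.11 and -1.08 in occlusion animals 1 to 4, against -0.87, -0.64, 1.34 and -0.62 in controls 1 to 4. Occlusion 1 joined control 3 at the top. In the inhibitory and reticular neuron list of 7 tested markers these 2 animals were also highest, at 0.64 and 1.12, but occlusion 4, the next in that list at 0.38, was lowest in Kcns3.

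**Figure D4:**
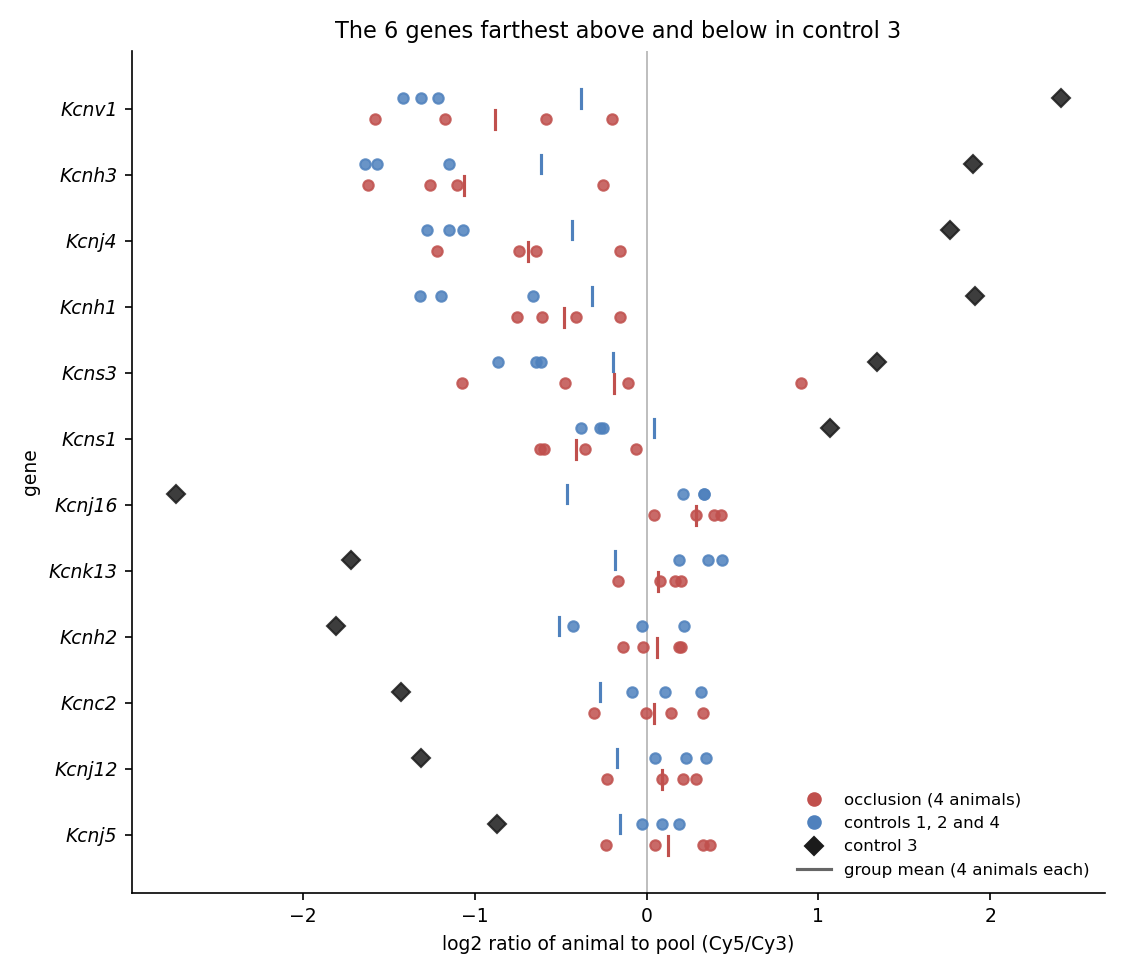
Log2 ratio of each animal to the pool (x axis) for the 6 potassium channel genes farthest above and the 6 farthest below in control 3 (y axis). Points are animals, the diamond is control 3 and vertical bars are means of 4 animals. Control 3 lies at 2.41 for Kcnv1 and -2.74 for Kcnj16, away from all others, while occlusion 1 lies near it in Kcns3.

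The 6 lowest in control 3 were Kcnj16, Kcnk13, Kcnh2, Kcnc2, Kcnj12 and Kcnj5. Kcnk13, a leak channel, had ratios of 0.20, -0.17, 0.08 and 0.16 in occlusion animals 1 to 4, against 0.19, 0.35, -1.72 and 0.44 in controls 1 to 4. Kcnh2, a voltage-gated channel best known for cardiac repolarisation, had ratios of -0.14, -0.02, 0.20 and 0.19 in occlusion animals 1 to 4, against 0.22, -0.43, -1.81 and -0.03 in controls 1 to 4. Control 3 was more than 1 log2 unit below every other animal in both. Kcnh2 differed between the groups by 0.57 (SE 0.38), and by 0.14 without control 3, and Kcnk13 went from 0.25 to -0.26. Kcnj12, a strong inward rectifier, and Kcnj5, a G protein-gated one, stood -1.53 and -0.96 from the median of the others. These 12 genes kept their side of the other animals when each array was median-centred, with the scanner software's ratio and with Cy5 signal alone. For Kcnv1 the distance was 3.62 in the main values and 3.62 to 5.20 over these settings. Its probe was well above background in the animal's channel on 6 of the 8 arrays (3 occlusion, 3 control). Near background a probe can show only part of a fall, so the size of this distance is not exact.

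Start-site sequence is shown for 3 of these 12 genes, because they moved to opposite sides in the same animal. Letters are those of the 250 bases before the annotated start in RefSeq (GRCr8), 5′ to 3′, in lower case. Capitals mark a match on either strand to a motif. The motifs searched were the GC box GGGCGG and the TATA box TATAAA. Others were TGACG from the cyclic AMP response element, the Tcf/Lef core CTTTGA and the E-box CAGCTG. The promoter table held 8 of the 12 names. The first pair was high in control 3 and the last was low.
Kcnj4 (chr7:112954548-112954797, minus strand): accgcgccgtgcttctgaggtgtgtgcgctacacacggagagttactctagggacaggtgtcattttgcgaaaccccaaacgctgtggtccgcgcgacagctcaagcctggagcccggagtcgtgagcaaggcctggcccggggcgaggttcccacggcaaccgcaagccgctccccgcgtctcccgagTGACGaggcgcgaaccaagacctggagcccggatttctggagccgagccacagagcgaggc
Kcnh1 (chr13:106252966-106253215, plus strand): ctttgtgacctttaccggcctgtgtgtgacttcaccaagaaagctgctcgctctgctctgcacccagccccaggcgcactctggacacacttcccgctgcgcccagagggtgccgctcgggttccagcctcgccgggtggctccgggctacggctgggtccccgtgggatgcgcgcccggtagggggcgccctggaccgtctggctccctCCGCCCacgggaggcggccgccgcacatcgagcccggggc
Kcnj16 (chr10:96517074-96517323, plus strand): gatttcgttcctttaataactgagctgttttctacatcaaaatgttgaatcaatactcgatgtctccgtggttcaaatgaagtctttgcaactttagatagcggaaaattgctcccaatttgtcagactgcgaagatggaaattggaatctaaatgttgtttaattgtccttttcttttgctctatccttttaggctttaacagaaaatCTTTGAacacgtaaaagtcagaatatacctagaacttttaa

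The Kcnj4 stretch held a match to TGACG and the Kcnh1 stretch a match to GGGCGG, and both were rich in G and C, at 65.6% and 71.6%. The Kcnj16 stretch was 33.6% G and C, the lowest of the tested potassium channel genes in the table, and held a match to CTTTGA. The 3 stretches do not stand for the rest of their side. The 5 start sites of names highest in control 3 held 59.2% to 72.4% G and C. The 5 of names lowest in it held 33.6% to 69.6%, so the ranges overlapped. Kcnk13, also low in control 3, was at 69.6% with no listed motif. Kcns3 and Kcns1, both high in control 3, also held CTTTGA. Over the 33469 start sites in the table, 30.5% held GGGCGG, 12.9% TATAAA, 18.2% TGACG, 13.9% CTTTGA and 12.0% CAGCTG. Over the 53 start sites of tested potassium channel genes, the shares were 47.2%, 1.89%, 13.2%, 11.3% and 17.0%, and the median G and C content was 64.0%, beside 51.2% for all start sites. None of these letters overlapped another listed motif in the 3 stretches shown. A match describes the letters and not a site in use.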

How the data were processed

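The deposited spot intensities, on a linear scale in 2 channels, and a log10 ratio were made by the authors with Agilent Feature Extraction 9.5.1.1, per the file headers. The same log10 ratio fills the deposited table of the whole series. The dyes named in the labels set the direction, the animal in Cy5 and the pool of all 8 animals in Cy3, with no dye swap.

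Intensities were corrected by normexp (offset 50), loess-normalised array by array (weight 0 for control and outlier spots), and averaged per probe after outlier spots were left out. One Kcnf1 value was lost in this way. Probes that stood well above background in the animal's channel on 4 or more arrays were tested in limma 3.58.1 (R 4.3.3; lmFit, eBayes, two-sided), with Benjamini-Hochberg adjustment over all 31690 probes. Each probe was fitted on its own, and a named gene was represented by its brightest tested probe. The fit was tested on simulated data. Single genes were also tested by exact permutation of the 8 animals. With 4 animals per group, the number of arrays limits the precision.

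Genes were named by rule, namely the 6 names in each direction with the smallest unadjusted p, a panel of 25, the 6 with the widest spread, and the 6 farthest from the other animals in control 3 on each side. The members, lists and panel were chosen with earlier results of these data known. All 106 probe names matched a current RefSeq symbol (GRCr8, used for names and start sites), 84 by accession and 22 by symbol. Probes under other names with a current Kcn symbol, 3 in number, were left out. Some genes and probes counted in the totals are not reported here. Alternatives covered normalisation, the filter on dim probes, blocks for slide or replicate number, single slides, each animal left out and 1 probe per gene. Fits on other scales for the control 3 distances were added after seeing the data. Figures were drawn with matplotlib 3.10.9.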

Additional observations from a re-analysis of the deposited data

Results flagged for a closer look

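In groups of 4 animals, 13 of 82 checks found an animal whose gap to its nearest neighbour filled most of the group's range, and chance flags about 1 in 20 groups. Many of these genes were named for their distance in control 3 or their wide spread, so the count cannot be read against that rate. Control 3 accounted for 8 of them, all in the potassium channel genes described with that animal. Its log2 ratios were -1.72 for Kcnk13 (other controls 0.19 to 0.44), -2.74 for Kcnj16 (other controls 0.21 to 0.33), 1.34 for Kcns3 (other controls -0.87 to -0.62), 0.67 for Kcnab2 (other controls -0.023 to 0.072), 1.90 for Kcnh3 (other controls -1.64 to -1.15), 2.41 for Kcnv1 (other controls -1.42 to -1.21), 1.76 for Kcnj4 (other controls -1.28 to -1.07), 1.07 for Kcns1 (other controls -0.38 to -0.25). The remaining animals were spread over both groups. They were control 1 at -0.32 for Kcnc1 (rest of its group 0.075 to 0.16), occlusion 4 at 0.25 for Kcnk9 (rest of its group 1.7e-04 to 0.032), occlusion 4 at -0.41 for Kcnn2 (rest of its group -0.057 to -0.0056), occlusion 3 at -0.023 for Kcnd3 (rest of its group 0.27 to 0.33). The median of all tested potassium channel probes in occlusion 2 was -0.071, beside -0.020 to -0.012 in the other occlusion animals.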

How the results depend on the processing

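The count of potassium channel probes with an adjusted p under 0.05 (limma) was 0 in every alternative, beside 3 with an unadjusted p in the main analysis. That unadjusted count was 5 with the scanner software's ratio (beside 3.58% of all probes), 10 within slide 1 (4.07%), 6 within slide 2 (2.66%) and 1 with only the brightest probe of each gene (3.12%). It was 1 to 8 with each animal left out, highest without control 1, then control 3 and occlusion 4, and lowest without occlusion 1, occlusion 2 or control 4. With the replicate number as a block it was 7 (2.94%). Same-numbered animals of the groups had correlated deviations of -0.13, 0.13, 0.02 and 0.08, so the numbers were not taken as pairs. The median difference of the members was -0.10 within slide 1 and 0.050 within slide 2, against -0.03 overall. The cause of these shifts was not tested.

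In each alternative fitted on all probes, both Kcnip1 probes stayed above 0 and the tested Kcnj3 probes below 0. None of the 40 named genes was called in any of 17 alternatives, 14 kept their sign in all of them and 26 changed it at least once. The differences of opposite sign were, after median centring, Kcnk3 -0.037, Kcnma1 0.026. With the scanner software's ratio they were Kcnk3 -0.088, Kcns3 -0.080. With Cy5 signal alone they were Kcnk9 0.0034, Kcnj10 0.0081, Kcnma1 0.022, Kcnn3 -0.14, Kcns3 -0.038. Within slide 1 they were Kcnk2 -0.038, Kcnj10 0.14, Kcnma1 0.27, Kcna1 -0.13, Kcnd2 0.25, Kcns3 -0.15. Within slide 2 they were Kcnk6 0.090, Kcnj6 0.040, Kcnj11 0.0060, Kcnj8 0.43, Kcnc1 0.083, Kcnd3 -0.092, Kcnq3 0.18, Kcnv1 0.63, Kcnh3 0.60, Kcnj4 0.66, Kcnh1 0.48, Kcnk13 -0.15, Kcnj12 -0.14, Kcnj5 -0.23. With each animal left out in turn, the ranges that crossed 0 were Kcnq3 -0.17 to 0.036, Kcns3 -0.36 to 0.52, Kcnj10 -0.089 to 0.044, Kcnma1 -0.13 to 0.076, Kcnd2 -0.28 to 0.051, Kcna1 -0.013 to 0.40, Kcnj16 -0.0033 to 1.02, Kcnj11 -0.12 to 0.038, Kcnj8 -0.29 to 0.064, Kcnn3 -0.14 to 0.23, Kcnc2 -0.073 to 0.51, Kcnip4 -0.11 to 0.20, Kcnv1 -0.85 to 0.43, Kcnh3 -0.79 to 0.39, Kcnj4 -0.54 to 0.48, Kcnh1 -0.50 to 0.58, Kcnk13 -0.26 to 0.46, Kcnj12 -0.12 to 0.44. For the 12 genes set apart by control 3, other settings moved some distances but turned none. With 4 animals per group and signals of low probes close to background, small differences were not detectable.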
